A study of Mus musculus with 12 samples.

Results

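Oxidative phosphorylation genes were followed in blood and spleen of mice with and without nuclear myosin 1 (NM1). They were taken by symbol from the 46603 gene identifiers of each count table and made up 99 protein-coding genes. Of these, 86 are nuclear and 13 lie on mitochondrial DNA. Complex I (NADH dehydrogenase) had 38 nuclear and 7 mitochondrial genes, complex II (succinate dehydrogenase) 4 nuclear genes, complex III (the cytochrome bc1 complex) 9 nuclear and 1 mitochondrial, complex IV (cytochrome c oxidase) 18 nuclear and 3 mitochondrial, and ATP synthase 17 nuclear and 2 mitochondrial. Assembly factors named Ndufaf and pseudogenes were left out. Genes were assigned to complexes by symbol alone, so all those named Nduf, Ndufa4 and Ndufa4l2 among them, stand under complex I.

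The 4 groups were blood of NM1 KO mice, blood of WT mice, spleen of NM1 KO mice and spleen of WT mice, with 3 libraries each. All mice were C57/Bl6 and 8 months old, and the KO was described by the labels only as a loss of NM1. Blood was drawn at the jaw vein, and each spleen gave a piece of about 5 mm3 from its tip. NM1 is a nuclear form of the motor protein Myo1c. The deposited count of Myo1c sums all forms of the gene, so its range of 58.5 to 219 counts per M counts (CPM, with M for 1000000) over the 12 libraries checks neither the knockout nor the labels.

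The respiratory chain passes electrons from NADH and succinate to oxygen through complexes I to IV and pumps protons across the inner mitochondrial membrane, and ATP synthase uses the returning protons to make ATP. Most subunits are made from nuclear genes and imported, while a small core is made inside the mitochondrion from its own DNA. Red cells lose their mitochondria as they mature, whereas proliferating precursors and tissue macrophages keep them. Nuclear respiratory factor 1 (NRF1) is a transcription factor known for binding the promoters of many of these nuclear genes.

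Before the oxidative phosphorylation genes were compared, the libraries were divided by their globin share. Globin took 48.9% to 56.1% of counts in 6 libraries, labelled blood KO 02, blood KO 03, spleen KO 03, blood WT 01, spleen WT 02 and spleen WT 04. It took 0.846% to 5.90% in the other 6, labelled blood KO 04, spleen KO 01, spleen KO 04, blood WT 03, blood WT 04 and spleen WT 01. The division ran across both tissue labels and both genotypes. Summed markers of red pulp macrophages, resident cells of the spleen, lay between 5.90 and 25.8 CPM in the globin-rich libraries but between 742 and 1150 CPM in the globin-poor ones. In the globin-poor libraries labelled blood they summed to 742 (KO 04), 1023 (WT 03) and 1055 CPM (WT 04), beside 63.8 to 84.6 CPM of the collagen gene Col1a1. In the globin-rich libraries labelled spleen they summed to 25.8 (KO 03), 9.58 (WT 02) and 15.1 CPM (WT 04), with 0 to 0.653 CPM of Col1a1 and 54.8% to 56.1% globin. These 6 libraries thus go against their tissue labels by these markers, and whether samples were exchanged was not tested. In all that follows, blood and spleen name the label a library carries, and a value in blood or in spleen is a value over libraries so labelled. Non-globin counts were 4.09 to 5.83 M in globin-rich and 21.8 to 27.4 M in globin-poor libraries. All levels below are therefore CPM with globin left out, and differences between the kinds of library carry no test, since the kinds are no groups of the study. In these bulk samples, fewer cells of a type and less RNA per cell cannot be told apart.

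Promoter sequences are shown to let the NRF1 letters (GCGCA, any base, then GCGC) be read in 1 gene of each complex. Among the members that hold these letters, the gene with the lowest globin-rich over globin-poor ratio was taken, which in complexes III and IV was the only holder. Of the 5, only Sdhd also had the lowest ratio of its whole complex, and the log2 ratio of Cox6a1 was 0.22. Windows reach from 250 bases before to 50 after each RefSeq start (GRCm38.p6), both strands were searched, and capitals mark the matches. They are Atp5g3 (chr2:73911277-73911576, minus strand), which makes subunit c of the ATP synthase rotor, Ndufa5 (chr6:24527641-24527940, minus strand), an accessory subunit of complex I, Sdhd (chr9:50603800-50604099, minus strand), a membrane anchor of complex II, Uqcrc1 (chr9:108936398-108936697, plus strand), a core protein of complex III, and Cox6a1 (chr5:115348909-115349208, minus strand), a subunit of complex IV.
Atp5g3: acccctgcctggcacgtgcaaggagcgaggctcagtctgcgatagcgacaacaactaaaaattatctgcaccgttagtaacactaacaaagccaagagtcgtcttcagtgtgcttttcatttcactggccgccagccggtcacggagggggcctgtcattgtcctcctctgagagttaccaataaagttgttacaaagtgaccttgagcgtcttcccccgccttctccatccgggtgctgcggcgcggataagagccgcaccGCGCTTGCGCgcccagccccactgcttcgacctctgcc
Ndufa5: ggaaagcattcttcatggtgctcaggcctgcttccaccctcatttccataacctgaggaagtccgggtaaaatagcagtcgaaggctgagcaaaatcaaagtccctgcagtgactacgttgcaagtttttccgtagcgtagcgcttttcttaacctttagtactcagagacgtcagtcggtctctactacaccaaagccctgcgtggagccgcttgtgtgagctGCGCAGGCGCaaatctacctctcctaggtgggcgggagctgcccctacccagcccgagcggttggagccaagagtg
Sdhd: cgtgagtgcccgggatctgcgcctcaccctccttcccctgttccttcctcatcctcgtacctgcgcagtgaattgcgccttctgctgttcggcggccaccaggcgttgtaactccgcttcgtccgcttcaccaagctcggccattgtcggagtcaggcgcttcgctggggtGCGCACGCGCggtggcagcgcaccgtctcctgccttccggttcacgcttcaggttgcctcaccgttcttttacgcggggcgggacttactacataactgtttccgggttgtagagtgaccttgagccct
Uqcrc1: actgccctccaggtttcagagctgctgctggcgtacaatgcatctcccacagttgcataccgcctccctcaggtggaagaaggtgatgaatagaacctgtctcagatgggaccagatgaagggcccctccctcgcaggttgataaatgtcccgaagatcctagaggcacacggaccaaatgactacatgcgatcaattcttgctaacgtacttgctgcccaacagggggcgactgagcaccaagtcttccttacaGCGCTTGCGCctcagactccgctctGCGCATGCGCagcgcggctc
Cox6a1: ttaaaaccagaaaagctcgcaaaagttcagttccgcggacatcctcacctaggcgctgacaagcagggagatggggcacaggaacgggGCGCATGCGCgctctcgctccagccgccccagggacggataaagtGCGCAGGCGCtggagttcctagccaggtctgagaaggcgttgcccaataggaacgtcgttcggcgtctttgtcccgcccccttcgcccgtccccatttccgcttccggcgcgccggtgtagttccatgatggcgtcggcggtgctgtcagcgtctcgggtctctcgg
Of the 86 nuclear members, 67 had a promoter in the RefSeq table, and 17 of these (25.4%) held the NRF1 letters, against 7.50% of 16348 protein-coding genes and 10.9% of the 10519 that had at least 120 counts over the 12 libraries. The first letter of the match stood at base 13 after the start in Atp5g3, 26 bases before it in Ndufa5 and 79 before it in Sdhd. Cox6a1 and Uqcrc1 each held 2 matches, and Sdha, the flavoprotein of complex II, and Ndufb4, an accessory subunit of complex I, held 3 each. Matches were counted in 14 of 49 promoters (28.6%) of members that were lower in every globin-rich library and in 3 of 16 (18.8%) of the other members over the count minimum. The ETS letters CCGGAAG were in 8 of 49 (16.3%) and 8 of 16 (50%), against 19% of the genes over the count minimum. The YY1 letters AAGATGGCG were in 7 of 49 (14.3%) and 0 of 16, against 3.37%. The SP letters GGGCGG went the other way, in 18 of 49 (36.7%) and 8 of 16 (50%), against 67.0%. These counts describe letters in a window and no binding.

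Mitochondrially encoded genes took between 0.998% and 1.42% of non-globin counts in every library, while the nuclear members varied more. The 13 mitochondrial genes together took 1.15%, 1.22% and 1.05% in blood KO 02, 03 and 04, against 1.14%, 0.998% and 1.30% in blood WT 01, 03 and 04. In spleen they took 1.38%, 1.03% and 1.42% in KO 01, 03 and 04, against 1.34%, 1.00% and 1.17% in WT 01, 02 and 04. The genotypes overlapped in both tissues. Means were 1.14% ± 0.0835 in KO blood and 1.14% ± 0.150 in WT blood (SD, n = 3 each, exact two-sided permutation p = 1.0), and 1.28% ± 0.219 in KO spleen and 1.17% ± 0.171 in WT spleen (exact permutation p = 0.5). With 3 libraries against 3, the smallest p possible is 0.1.

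The 86 nuclear genes took 0.544%, 0.806% and 1.65% in blood KO 02, 03 and 04, against 0.578%, 1.57% and 1.15% in blood WT 01, 03 and 04. In spleen they took 1.37%, 0.653% and 1.00% in KO 01, 03 and 04, against 0.973%, 0.745% and 0.786% in WT 01, 02 and 04. In each of the 4 groups the globin-rich libraries lay below the globin-poor ones. KO and WT means were 1.00% ± 0.579 and 1.10% ± 0.496 in blood (exact permutation p = 0.9) and 1.01% ± 0.358 and 0.835% ± 0.121 in spleen (exact permutation p = 0.6). The ratio of mitochondrial to nuclear counts was 1.34 to 2.12 in globin-rich and 0.638 to 1.42 in globin-poor libraries, so the kinds overlapped narrowly.

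**Figure D1:**
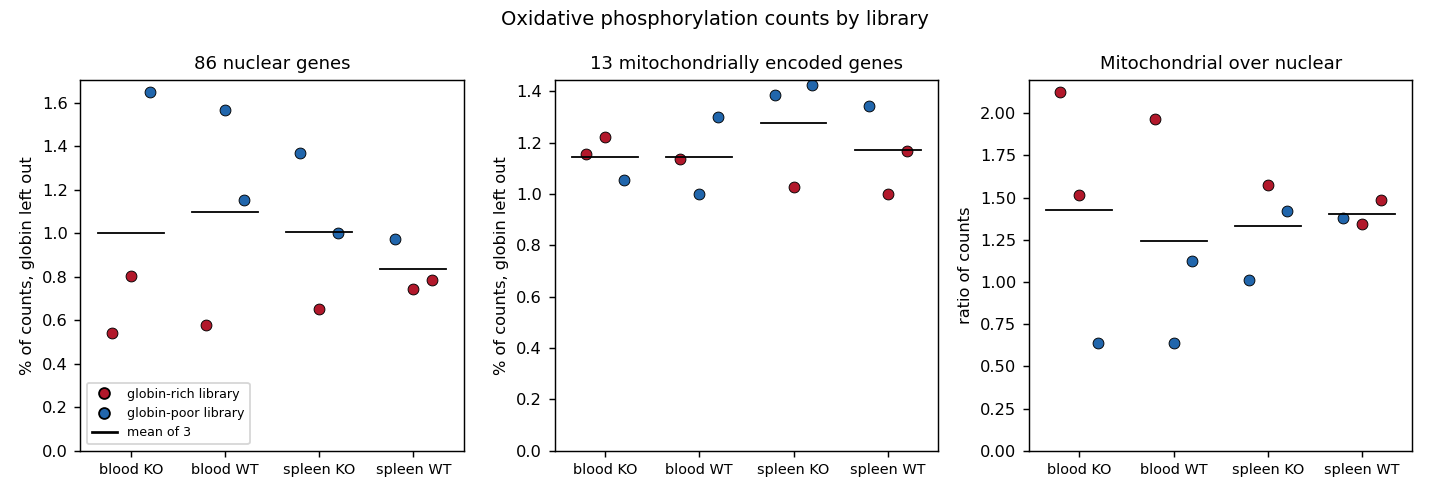
Share of non-globin counts (%) taken by the 86 nuclear and the 13 mitochondrially encoded genes, and their ratio, in each of the 12 libraries by group. Points are libraries, red for globin-rich and blue for globin-poor, and bars are means of 3. Nuclear shares run from 0.544% to 0.806% in globin-rich and from 0.973% to 1.65% in globin-poor libraries.

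Of the 99 members, 95 passed the minimum of 120 counts over all libraries, and 72 of them were lower in all 6 globin-rich than in all 6 globin-poor libraries. None was higher in all. Among all 15432 genes over the minimum, 48.7% were lower and 3.19% higher, and among those at 20 CPM or more 58.0% were lower. The median globin-rich over globin-poor ratio was -1.20 on the log2 scale for all genes, and 36 of the 93 members with a ratio lay above that value. Scaling by the trimmed mean of M-values (TMM) moved the median of all genes to -0.10. It then left 28 of the 95 members lower (29.5%, against 17.2% of all genes) and 9 higher (9.47%, against 12.5% of all genes). These 9 were Atp5b, Atp5l, Cox6c, Cox7b, Ndufa1, mt-Co1, mt-Nd5, mt-Atp6 and mt-Atp8. Directions are therefore read against the median of all genes.

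Complexes I and II stood furthest below that median. For the 38 nuclear genes of complex I, 36 were lower in all globin-rich libraries (16 under TMM scaling) and the median log2 ratio was -2.08, which is -0.88 relative to all genes. Ndufv1, the flavoprotein that accepts electrons from NADH, had 15.2, 26.8 and 35.8 CPM (lowest, median and highest) in globin-rich libraries and 94.9, 166 and 205 CPM in globin-poor libraries. The lowest ratio belonged to Ndufc2 (chr7:97400003-97407802, plus strand), an accessory subunit, with 7.18, 10.02 and 22.3 CPM against 59.5, 80.8 and 109 CPM. Globin-rich levels of both genes stayed below every globin-poor level. Ndufa1, a small membrane subunit, had the highest ratio among the nuclear genes of the complex. It had 66.0, 111 and 143 CPM in globin-rich and 54.2, 64.6 and 81.0 CPM in globin-poor libraries, and the kinds overlapped. It was 1 of 7 nuclear genes of the complex above the median of all genes. Under TMM scaling its log2 ratio was 1.97, and Ndufa3 (1.24), Ndufb11 (0.65) and Ndufa13 (0.51) were among the others above 0.

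All 4 genes of complex II were lower in every globin-rich library (3 under TMM scaling). Sdhd had 15.0, 18.1 and 30.3 CPM in globin-rich and 85.6, 117 and 156 CPM in globin-poor libraries, and Sdhc, the other membrane anchor, had 14.2, 17.2 and 29.3 CPM against 85.7, 110 and 130 CPM. Sdha, with 69.4, 117 and 130 CPM against 245, 258 and 287 CPM, had a log2 ratio of -1.14, close to that of all genes. The median log2 ratio of the complex was -2.33, or -1.13 relative to all genes. Over all the scalings and left-out libraries tried, this relative value stayed between -1.28 and -0.95, and that of nuclear complex I between -1.07 and -0.66.

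Complex III was intermediate, with 7 of 9 nuclear genes lower in all globin-rich libraries (2 under TMM scaling) and a median log2 ratio of -1.68. Uqcrb, a small matrix-side subunit, had the lowest ratio (11.4, 14.3 and 21.9 CPM in globin-rich, 53.2, 71.2 and 87.6 CPM in globin-poor libraries). Cyc1, the cytochrome c1 that hands electrons to cytochrome c, had 25.2, 34.4 and 40.6 CPM against 112, 158 and 203 CPM. Uqcrh, the hinge protein beside cytochrome c1, had nearly equal medians of 212 CPM in globin-rich and 226 CPM in globin-poor libraries and a log2 ratio of -0.09 (1.02 under TMM scaling). The hinge protein thus stood apart from its partner Cyc1 within the same complex.

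Nuclear genes of complex IV stood above the median of all genes. Only 6 of the 15 that passed the minimum were lower in all globin-rich libraries (2 under TMM scaling), and their median log2 ratio was -0.43 (0.60 under TMM scaling, the opposite sign), which is 0.77 relative to all genes and between 0.37 and 0.96 over the settings tried. Cox7b (chrX:106015700-106022450, plus strand), a small membrane subunit, had 92.9, 130 and 186 CPM in globin-rich and 69.3, 80.5 and 111 CPM in globin-poor libraries. Cox6c had 157, 244 and 314 CPM against 137, 175 and 227 CPM, and Cox6a1 had 357, 544 and 826 CPM against 322, 467 and 742 CPM. The kinds overlapped for all 3 genes. Cox5b, a zinc-binding matrix subunit, did not follow them, with 36.7, 44.2 and 51.9 CPM in globin-rich and 160, 224 and 312 CPM in globin-poor libraries.

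Of the 17 nuclear genes of ATP synthase, 11 were lower in all globin-rich libraries (under TMM scaling 5 were lower and 2 higher). Their median log2 ratio was -1.52, which is -0.32 relative to all genes. The enzyme was divided within its own catalytic head. Atp5a1 and Atp5b encode the alpha and beta subunits, which stand in equal number in the enzyme. Atp5b (chr10:128083273-128090391, plus strand) had 1044, 1560 and 2103 CPM in globin-rich and 654, 965 and 1166 CPM in globin-poor libraries, whereas Atp5a1 had 228, 267 and 319 CPM against 674, 829 and 953 CPM. The ratio of Atp5b to Atp5a1 counts in the same library, which no scaling changes, was 4.44, 8.30 and 3.27 in blood KO 02, blood KO 03 and spleen KO 03, and 4.81, 7.76 and 7.60 in blood WT 01, spleen WT 02 and spleen WT 04. In the globin-poor libraries it was 1.22, 1.17 and 1.07 in blood KO 04, spleen KO 01 and spleen KO 04, and 1.10, 1.24 and 0.971 in blood WT 03, blood WT 04 and spleen WT 01. Every globin-rich ratio lay above every globin-poor one. Among the other subunits, Atp5l in the membrane part had a log2 ratio of 0.62, while Atp5g1, Atp5g3 and Atp5o had -3.46, -3.19 and -2.42.

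**Figure D2:**
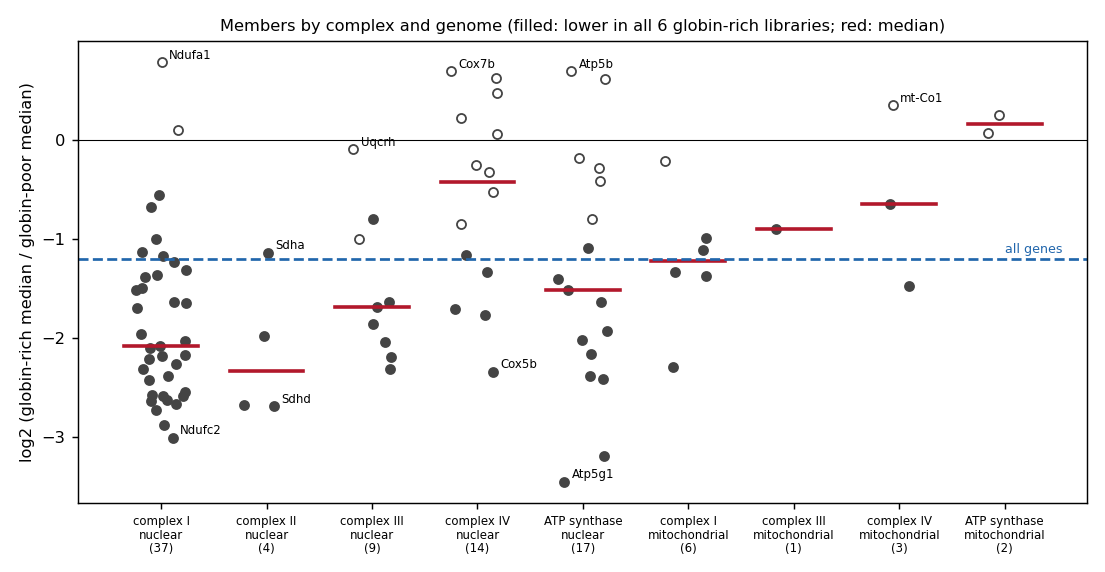
Log2 ratio of the globin-rich over the globin-poor median level for each member, by complex and genome, with the number of genes plotted under each set. Filled points are lower in all 6 globin-rich libraries, red bars are set medians and the dashed line is the median of all genes at -1.20. Nuclear genes of complex I (median -2.08) and complex II (-2.33) lie mostly under the line, and those of complex IV (-0.43) mostly above it.

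Gene families with several copies differed in whether the same copy led in every library. Subunit c is made from 3 genes with the same mature protein, and Atp5g3 gave 61.7% to 70.5% of their counts in globin-rich and 70.3% to 73.2% in globin-poor libraries. Atp5g2 gave 15.1% to 22.7% against 7.91% to 12.7%, without overlap, and 38.3% of its 50-base windows also occur in other genes. Cox6b2, the copy of subunit VIb known from testis, gave 63.9%, 74.6% and 40.3% of Cox6b counts in blood KO 02, blood KO 03 and spleen KO 03, and 73.2%, 67.9% and 73.0% in blood WT 01, spleen WT 02 and spleen WT 04. In globin-poor libraries it gave 7.47% to 33.4%. Cox6b2 was thus the larger share in 5 of 6 globin-rich libraries and the smaller share in all globin-poor ones. Among the Cox7a copies, Cox7a2 gave 31.0%, 53.3% and 25.5% of counts in blood KO 02, blood KO 03 and spleen KO 03, and 34.7%, 49.9% and 53.1% in blood WT 01, spleen WT 02 and spleen WT 04, while Cox7a2l, a relative known from respiratory supercomplexes, gave 46.5% to 74.2%. Cox7a2 was ahead of Cox7a2l in blood KO 03, spleen WT 02 and spleen WT 04, narrowly so in spleen WT 02 (49.9% and 49.4%). Cox7a2l led in all globin-poor libraries with 62.9% to 81.8%.

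Other tissue-specific copies were low throughout. Cox4i2 reached 1.89 CPM at most beside 113 to 704 CPM of Cox4i1, and Cox7a1 reached 1.52 CPM. Cox6a2 stayed at or under 0.244 CPM in globin-rich libraries and lay between 1.59 and 3.79 CPM in the globin-poor ones. Ndufa4l2, a relative of Ndufa4, had 0 counts in all 6 globin-rich libraries, which allows up to 0.515 to 0.733 CPM depending on the library, and 2.81 to 6.11 CPM in all globin-poor ones. Cox8b and Cox8c had 43 and 5 counts in all, and Cox7b2 had none. These 3 and mt-Nd4l (115 counts) were the 4 members under the count minimum.

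The mitochondrial genes differed among themselves. mt-Co1, the catalytic core of complex IV, had 6948, 8325 and 5486 CPM in blood KO 02, blood KO 03 and spleen KO 03, and 7060, 7095 and 7807 CPM in blood WT 01, spleen WT 02 and spleen WT 04. In globin-poor libraries it had 4336, 5666 and 6191 CPM in blood KO 04, spleen KO 01 and spleen KO 04, and 3795, 5699 and 5433 CPM in blood WT 03, blood WT 04 and spleen WT 01. mt-Co1 made up 53.5% to 70.9% of mitochondrial member counts in globin-rich and 38.0% to 43.9% in globin-poor libraries, without overlap. mt-Nd1, a membrane core of complex I, had 500, 767 and 1006 CPM against 1813, 1933 and 2295 CPM. mt-Nd2, mt-Nd4 and mt-Nd6 had log2 ratios of -1.11, -0.99 and -1.37 (0.09, 0.22 and -0.18 under TMM scaling), and mt-Cytb, the cytochrome b of complex III, had -0.89 (0.31 under TMM scaling). mt-Nd5 (-0.21), mt-Atp6 (0.07) and mt-Atp8 (0.25) overlapped between the kinds, whereas under TMM scaling they were higher in all globin-rich libraries (1.12, 1.27 and 1.32), with the sign of mt-Nd5 turned. In complex IV the log2 ratio was 0.35 for mt-Co1 (1.64 under TMM scaling), -0.65 for mt-Co2 (0.50, the opposite sign) and -1.48 for mt-Co3 (-0.35). Relative to all genes, the mitochondrial genes of complex I lay at -0.02, mt-Cytb at 0.30 and those of ATP synthase at 1.36.

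The annotated mitochondrial ribosomal RNAs were 1.53% to 2.34% of non-globin counts in globin-rich and 0.129% to 0.250% in globin-poor libraries, and the part of this difference in the values above was not tested. Levels of several mitochondrial genes are uncertain, because copies on chromosome 1 share their sequence. All 50-base windows of mt-Co2 occur there, as do 99.9% for mt-Co3, 99.5% for mt-Atp6, 98.8% for mt-Nd4l, 98.0% for mt-Nd3, 62.2% for mt-Nd4 and 51.1% for mt-Co1, and reads from such windows may have been dropped or divided. mt-Co2 had only 4.79 to 16.7 CPM and mt-Co3 1.52 to 12.7 CPM, far below mt-Co1. The summed mitochondrial shares, their ratios to nuclear counts and the mt-Co1 percentages above carry the same uncertainty. No nuclear member shared over 50% of its windows.

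**Figure D3:**
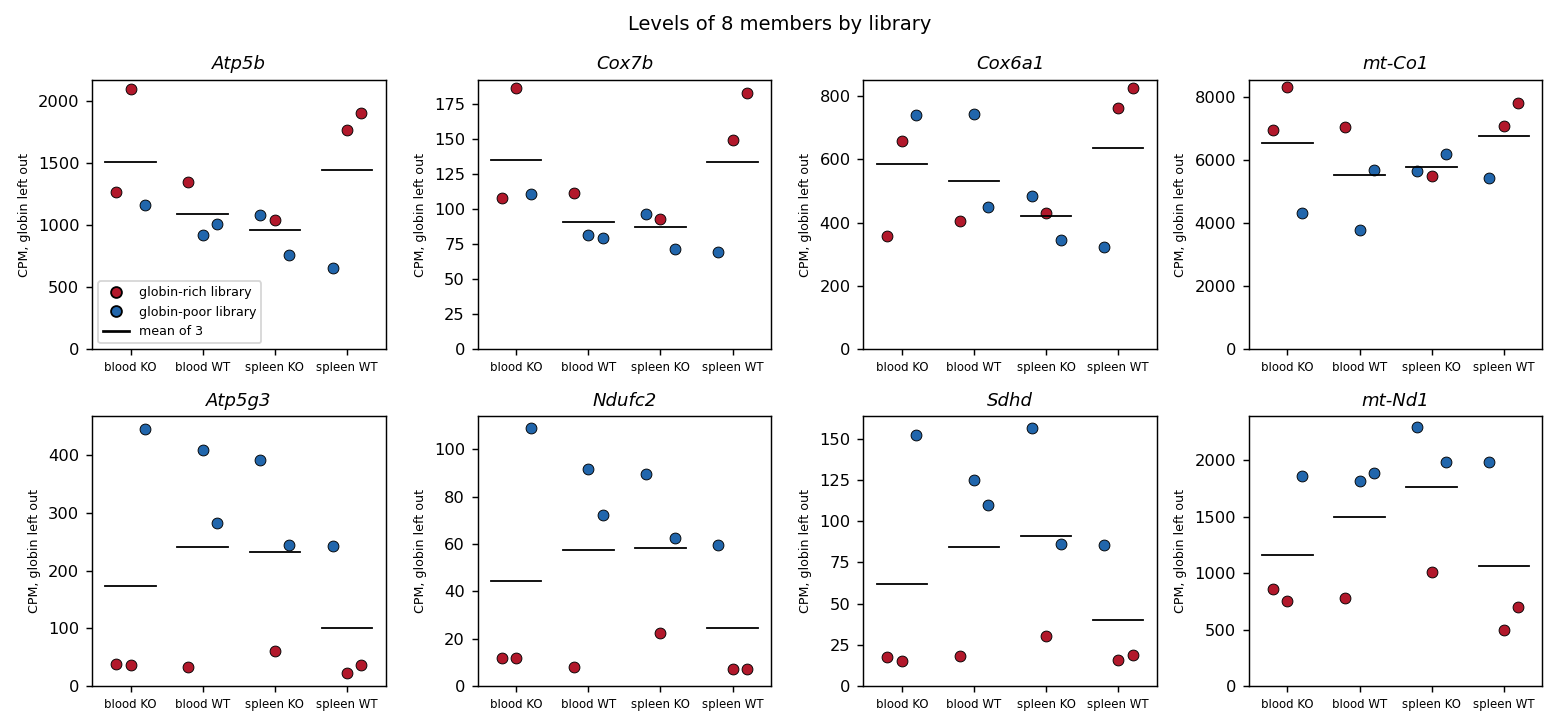
Levels (CPM, globin left out) of 8 members in each of the 12 libraries by group. Points are libraries, red for globin-rich and blue for globin-poor, and bars are means of 3. For Atp5g3, Ndufc2, Sdhd and mt-Nd1 every red point lies below every blue one, whereas for Atp5b, Cox7b, Cox6a1 and mt-Co1 red points reach the highest levels.

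Levels also varied within each kind of library, beside the cell markers. In the globin-rich libraries, the sum of erythroid markers without globin was 99367, 106684 and 78093 CPM in blood KO 02, blood KO 03 and spleen KO 03, and 97452, 114593 and 108621 CPM in blood WT 01, spleen WT 02 and spleen WT 04. In the same order Atp5b was 1268, 2103 and 1044 CPM in the KO libraries and 1353, 1768 and 1908 CPM in the WT libraries. Cox6a1 was 357, 657 and 432 CPM in the KO libraries and 404, 761 and 826 CPM in the WT libraries. The 3 libraries with the highest erythroid sums were also the 3 highest for both genes. Spleen KO 03, which had the lowest erythroid sum, carried 3209 CPM of neutrophil markers against 404 to 879 CPM in the other globin-rich libraries. This sum came from S100a9 (1791 CPM), S100a8 (1076 CPM) and Retnlg (329 CPM). The rest of the list was low there, with 8.41 CPM of Ngp, 3.47 of Ltf and 1.28 of Camp. Ltf and Camp were higher in spleen WT 02 (5.22 and 1.96 CPM). Ndufc2 (22.3 CPM) and Sdhd (30.3 CPM) in spleen KO 03 were the highest of the kind. Platelet markers summed to between 2029 and 6274 CPM in the globin-rich libraries, against 179 to 315 CPM where globin was low. Erythroid markers summed to between 613 and 7943 CPM in the globin-poor libraries. Each of these lists held 6 genes, none of which was at 0 in every library of a kind, and the part of these markers in the levels was not tested.

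In the globin-poor libraries, cell cycle markers summed to 2947, 1705 and 885 CPM in blood KO 04, spleen KO 01 and spleen KO 04, and to 2754, 2845 and 352 CPM in blood WT 03, blood WT 04 and spleen WT 01. The nuclear members took 1.65%, 1.37% and 1.00% in the KO libraries and 1.57%, 1.15% and 0.973% in the WT libraries in that order. The library with the lowest marker sum, spleen WT 01, also had the lowest share, and blood KO 04 was highest in both. Blood WT 04 departed from that order.

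**Figure D4:**
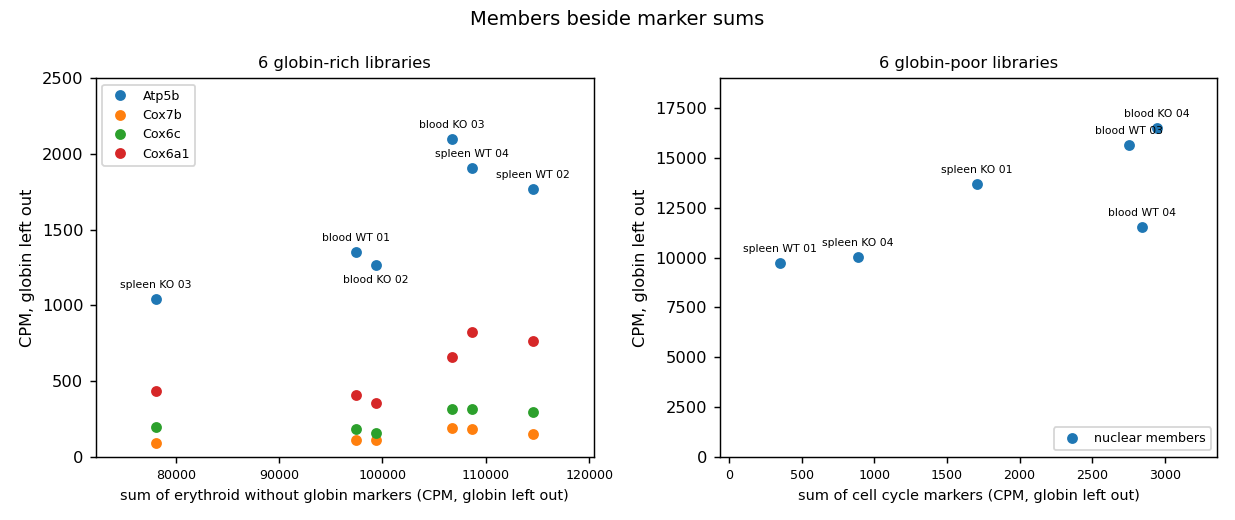
Left, levels of Atp5b, Cox7b, Cox6c and Cox6a1 (CPM, globin left out) against the sum of erythroid markers without globin in the 6 globin-rich libraries. Right, summed level of the 86 nuclear members against the sum of cell cycle markers in the 6 globin-poor libraries. Points are libraries, named beside the upper row, and Atp5b runs from 1044 CPM at the lowest erythroid sum to 2103 CPM in blood KO 03.

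The comparison of NM1 KO with WT, the question of the design, called no member. In blood, edgeR's quasi-likelihood test with Benjamini-Hochberg adjustment called 0 of 94 members tested, beside 0% of all 14939 genes, and 0 members had an unadjusted p under 0.05. In spleen it called 0 of 96 members, beside 0% of all 15362 genes, with 0 members under an unadjusted 0.05. DESeq2 and limma-voom also called none in either tissue, with 0 members under an unadjusted 0.05 by both tools in blood, and 2 by DESeq2 and 0 by limma-voom in spleen. Median log2 fold changes of KO over WT were -0.05 for nuclear and 0.11 for mitochondrial members in blood, and -0.0044 and -0.25 in spleen, where all genes had -0.05 in blood and 0.02 in spleen. Leaving out 1 library moved the nuclear median to between -0.62 (without KO 04) and 0.39 (without WT 03) in blood, and to between -0.19 (without KO 01) and 0.25 (without KO 03) in spleen, so neither sign was stable. No member had all KO libraries on the same side of all WT libraries in either tissue, where 0.117% of genes lay above and 3.73% below in blood, and 1.41% above and 1.04% below in spleen.

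The difference of the KO effects between the tissues called 0 of 96 members, beside 0% of genes, with 3 members under an unadjusted 0.05 in edgeR, 9 in DESeq2 and 1 in limma-voom. Cox7b is given as an example. Its levels are CPM with globin left out, whereas the fits kept globin counts and scaled the libraries by TMM. Fold changes here and below therefore do not follow directly from the printed CPM. It had 108, 186 and 111 CPM in blood KO 02, 03 and 04, against 112, 81.8 and 79.2 CPM in blood WT 01, 03 and 04, and its log2 fold change was 1.06 ± 0.60 (SE, n = 3 each, edgeR adjusted p = 1.000). In spleen it had 96.7, 92.9 and 71.3 CPM in KO 01, 03 and 04, against 69.3, 149 and 183 CPM in WT 01, 02 and 04, with a log2 fold change of -1.65 ± 0.77 (SE, n = 3 each, edgeR adjusted p = 0.989). The 2 spleen WT values above all KO values were those of the globin-rich libraries, and KO and WT overlapped in both tissues. Nuclear complex IV had a median log2 fold change of -1.07 in spleen and 0.08 in blood, and spleen WT held 2 globin-rich libraries where spleen KO held 1.

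With a term for the kind of library, 0 of 96 members were called in each tissue, beside 0% of 16505 genes in blood and 0% of 16560 in spleen. In blood, 5 members had an unadjusted p under 0.05 in edgeR, 5 in DESeq2 and 1 in limma-voom, and in spleen 3, 1 and 0. In blood the median nuclear member lay at a log2 fold change of 0.40 and 77 of 83 lay above 0, where the median of all genes was 0.00019. That nuclear median was 0.20 without blood KO 03, 0.24 without blood WT 04, 0.55 without blood WT 03 and 0.21 with scaling by library size only. The smallest p was that of Ndufc2, at 0.60 ± 0.24 (SE, edgeR adjusted p = 1.000). In spleen the nuclear median was -0.02. Leaving out spleen WT 01 moved it to -0.49. The members called in that fit were Cox6c, Atp5b, Cox7b, Cox7a2, Cox6a1 and Atp5k, all lower in KO with log2 fold changes between -1.33 and -1.56. The share of all genes called in that fit is not given here, so the calls cannot be read as particular to the members. In that fit no globin-poor WT spleen remained, so the genotype term rested on spleen KO 03 alone against spleen WT 02 and WT 04. The spread came from the pair WT 02 and WT 04 and the pair KO 01 and KO 04, and spleen KO 03 was assumed to vary like them. By chi-square per degree of freedom of their counts, spleen WT 02 and WT 04 were the closest of all library pairs (7.17). Spleen KO 01 and KO 04 lay at 83.9, and spleen KO 03 lay at 72.7 from WT 02 and 54.2 from WT 04. Spleen KO 03 is the globin-rich library with the lowest erythroid sum and a neutrophil sum of 3209 CPM, mostly S100a9 and S100a8. That library and the genotype therefore cannot be told apart in these calls. Leaving out spleen KO 03 instead gave a nuclear median of 0.35 and no call.

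Within the globin-rich libraries, 0 of 91 members were called, beside 0% of 12962 genes, and 2 had an unadjusted p under 0.05 in edgeR, 1 in DESeq2 and 2 in limma-voom. Of the 95 members over the count minimum, all KO lay above all WT for 9, against 7.19% of genes, and below for 1, Cox7a1, against 4.7%. The 9 were Ndufa8, Ndufc2, Ndufs8, Ndufv1, Ndufv2, Sdhc, Uqcrc1, Uqcrfs1 and mt-Nd6. Ndufc2 had 11.8, 12.0 and 22.3 CPM in blood KO 02, blood KO 03 and spleen KO 03, against 8.24, 7.18 and 7.33 CPM in blood WT 01, spleen WT 02 and spleen WT 04 (log2 fold change 0.82 ± 0.28 SE, edgeR adjusted p = 0.672). The KO libraries were above the WT libraries for this gene, and the gene was not called.

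Within the globin-poor libraries, 0 of 97 members were called, beside 0% of 17098 genes, with 1 member under an unadjusted 0.05 in edgeR, 5 in DESeq2 and 2 in limma-voom. The median nuclear member lay at a log2 fold change of 0.36 and 79 of 84 lay above 0, beside medians of 0.01 for the mitochondrial members and -0.00082 for all genes. The nuclear median was 0.12 without a term for the tissue label, and between 0.22 (without spleen KO 01) and 0.52 (without blood WT 03) when 1 library was left out. Cyc1, the member with the smallest p, had 203, 197 and 133 CPM in blood KO 04, spleen KO 01 and spleen KO 04, against 161, 155 and 112 CPM in blood WT 03, blood WT 04 and spleen WT 01 (log2 fold change 0.54 ± 0.23 SE, edgeR adjusted p = 0.747). The genotypes overlapped for Cyc1, and none of the members separated them, where 2.14% of genes lay above and 1.02% below. The cell cycle sums given above also differed between these 6 libraries, and their part in the nuclear median was not tested.

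**Figure D5:**
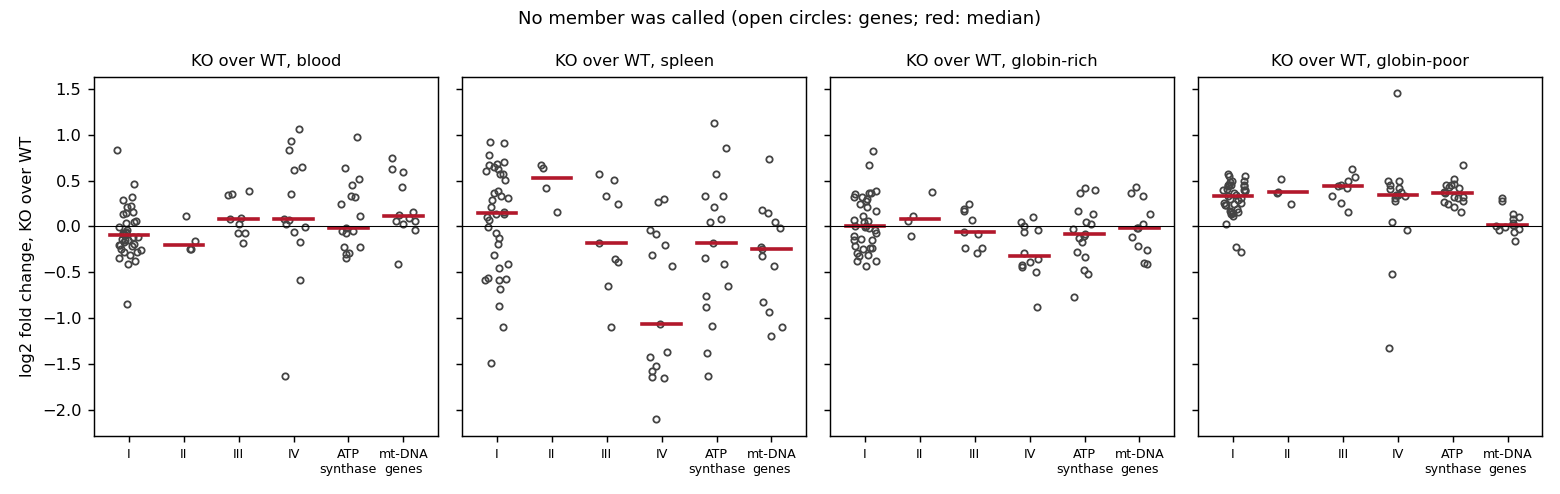
Log2 fold change of KO over WT for each tested member by complex (nuclear genes) and for the mitochondrial genes, in blood, in spleen and within each kind of library, from edgeR. Open circles are genes and red bars are medians, and no member was called in any panel. Nuclear complex IV has a median of -1.07 in spleen, and the globin-poor panel has most nuclear genes above 0 (79 of 84).

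Libraries labelled spleen were compared with those labelled blood over both genotypes, with the kind of library in the fit. No member was called of 96, beside 0.0297% of 16858 genes, and 0 members had an unadjusted p under 0.05 in edgeR, 0 in DESeq2 and 7 in limma-voom. The median nuclear member lay at a log2 fold change of -0.15 and 70 of 83 lay below 0, while the mitochondrial median was 0.13 and 11 of 13 lay above 0. Uqcrfs1, the Rieske iron-sulfur protein of complex III, had the smallest p (log2 fold change -0.39 ± 0.19 SE, edgeR adjusted p = 0.498). It had 41.0, 23.7 and 22.5 CPM in globin-rich libraries labelled spleen (KO 03, WT 02 and WT 04) against 37.4, 34.9 and 32.1 CPM in those labelled blood (KO 02, KO 03 and WT 01). In globin-poor libraries it had 142, 105 and 89.3 CPM under the spleen label (KO 01, KO 04 and WT 01) against 175, 155 and 134 CPM under the blood label (KO 04, WT 03 and WT 04). The labels overlapped in each kind of library.

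Other genes of mitochondrial supply followed the nuclear members between the kinds of library. Of the mitochondrial ribosomal proteins over the count minimum, 74 of 77 were lower in all globin-rich libraries (median log2 ratio -2.20), of the import machinery 21 of 22 (-2.43), of the TCA cycle enzymes 14 of 14 (-1.71), of the assembly factors 39 of 43 (-1.68) and of the genes for mitochondrial DNA expression and copying 13 of 16 (-1.69). Of the biogenesis regulators 7 of 10 were lower (-1.54) and of the electron carriers and the ATPase inhibitor 4 of 5 (-2.18), where all genes had 48.7% and -1.20. Counts under TMM scaling are not given for these lists. For the members, that scaling took the number lower from 72 to 28 of 95. No gene of these lists was called in any of the 8 fitted comparisons. From each list, only the gene with the smallest p was taken. The lowest p among these was that of Hcfc1, a transcriptional coregulator (spleen over blood label, log2 fold change -0.58 ± 0.15 SE, edgeR adjusted p = 0.193). Next, in the same comparison, came Mrps25 of the small mitochondrial ribosomal subunit (-0.58 ± 0.17, edgeR adjusted p = 0.242) and Lyrm7, an assembly factor of complex III (-1.38 ± 0.41, edgeR adjusted p = 0.248).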

How the data were processed

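Messenger RNA was profiled in 12 libraries. The authors deposited raw counts of each gene, with a table for every library. Per the submitters' processing notes, the tools were HTSeq, SAMtools 0.1.19, HISAT2 2.0.4, FastQC and Trimmomatic 0.36, and the genome was mm10 (GRCm38). Which annotation release and strand setting served for counting is not given in the sources used here, so reads of overlapping genes cannot be told apart. Symbols came from GENCODE vM21, which held 46005 of the identifiers. Libraries were made with a NEBNext kit from 500 ng of RNA each and held 9.32 to 28.2 M counts (M, 1000000). Whether each came from a separate mouse is not stated, so p-values measure the spread between libraries, which may be technical.

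Levels are CPM with 10 globin genes left out. The fits kept globin counts and used TMM scaling, so fold changes and printed levels are on different scales. A library was globin-rich above a globin share of 25%. A count of 0 allows up to 3 counts, and such limits cover counting error only. Comparisons used R 4.3.3 with edgeR 4.0.16 (filterByExpr, TMM, quasi-likelihood test, Benjamini-Hochberg adjusted p under 0.05 over all genes), fitted on the groups compared. DESeq2 1.42.0 and limma 3.58.1 (voom) were alternatives, beside other scalings and filters, fits with a replicate block and fits without each library in turn. Fits in blood, in blood with the globin term, within each kind of library and between the tissue labels were also run on simulated data. Those in spleen, in spleen with the globin term and for the tissue difference were not. The size of change that could be detected is not given here. For shares of counts, exact permutation tests (two-sided) were used.

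Named genes followed a rule that took the mitochondrial genes, the isoform pairs, the extremes of each complex and the smallest p of each comparison, and other names were chosen after their values were seen. The members and lists were chosen with earlier results of these data known. Promoters are those of RefSeq on GRCm38.p6. No library was left out of the main comparisons.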

Additional observations from a re-analysis of the deposited data

How the results depend on the processing

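Over 14, 14, 20, 13, 14, 15 and 20 alternatives, no setting called a member in blood, in spleen, in their difference, in blood with the globin term, within globin-rich libraries, within globin-poor libraries or between the tissue labels. In spleen with the globin term, leaving out each library gave 0 to 6 calls, a nuclear median log2 fold change of -0.49 to 0.35 and a mitochondrial one of -0.16 to 0.18. Leaving out each library gave nuclear medians of -0.62 to 0.39 in blood, -0.19 to 0.25 in spleen, -0.22 to 0.70 for the tissue difference, 0.20 to 0.55 in blood with the globin term and 0.22 to 0.52 within globin-poor libraries (0.12 there without a tissue label term). It gave mitochondrial medians of -0.35 to 0.0201 in spleen, -0.33 to 0.0158 for the tissue difference, -0.13 to 0.19 within globin-rich and -0.0903 to 0.198 within globin-poor libraries, and nuclear medians of -0.48 (without blood WT 01) to 0.42 (without spleen KO 03) within globin-rich libraries. The highest of these mitochondrial medians came without spleen WT 04 in spleen and for the tissue difference, without spleen KO 03 within globin-rich and without blood KO 04 within globin-poor libraries. Scaling by library size only moved the mitochondrial median to -0.57 in blood, 0.62 in spleen, 1.21 for the tissue difference, 0.21 in spleen with the globin term and 0.23 within globin-rich libraries, and the nuclear median to 0.92 in spleen and 1.44 for the tissue difference, where all genes moved to -0.61 in blood, 0.69 in spleen and 1.33 for the difference. TMM scaling gave 28 members lower (29.5%) and 9 higher (9.47%) in globin-rich libraries, beside 17.2% and 12.5% of all genes. Leaving out each library gave 72 to 73 members lower and 0 to 2 higher (2 without spleen KO 03), beside 48.9% to 52.5% and 3.22% to 3.89% of all genes. With globin counted, the mitochondrial share differed by -0.194 percentage points in blood and 0.306 in spleen (KO minus WT).

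Some replicate numbers recur between groups, but correlations of residuals for the same number ran from -0.75 to 0.66 and followed the kind of library. The numbers were not treated as pairs. With a replicate block 0 members were called, with nuclear medians of -0.14 in blood, 0.20 in spleen and 0.67 within globin-poor libraries. The block could not be fitted for blood or spleen with the globin term or within globin-rich libraries. Depth limits members near 1 CPM in globin-rich libraries.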
